A study of Mus musculus with 9 samples.

Results

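The fibrillar collagen genes examined here were *Col1a1*, *Col1a2*, *Col3a1*, *Col5a1*, *Col5a2*, *Col5a3* and *Col27a1*. They were chosen by symbol from the gene lists of the deposited matrices, which makes them 7 of the 54534 genes listed, 26367 of which had at least 1 UMI (unique molecular identifier, a tag that counts each captured RNA molecule once). All 7 had UMIs. They were followed through the cell classes, lineages and injury states of mouse knee synovium in 9 single-cell RNA-seq libraries prepared with a 10x Genomics 5′ kit. All mice carried the alleles Gdf5-Cre, Tom and Pdgfrα-H2BGFP and are labelled 11 to 12 weeks old. The study's figures give 11 weeks for the steady-state mice and 12 weeks for the injured ones. Age therefore goes with state and cannot be told apart from injury. Cre under *Gdf5* control marks the descendants of the embryonic joint interzone with the red protein Tom, and the H2BGFP reporter marks the nuclei of cells that express *Pdgfrα*, a general fibroblast gene. Tom+ cells were sorted by Tom, and the study describes them as coexpressing GFP. Cells outside the *Gdf5* lineage were sorted only if they were GFP+ (Tom-GFP+), so the lineages may differ in their gate as well as in their origin. Steady-state knees gave 2 Tom+ libraries and 1 Tom-GFP+ library. Injured knees, taken 6 days after a scratch through the cartilage of the trochlear groove, gave 4 Tom+ and 2 Tom-GFP+ libraries. The steady-state mice are labelled naive, so opening the joint and scratching the cartilage cannot be told apart. The study describes the libraries as coming from separate mice, with each Tom-GFP+ library from a mouse matched to a Tom+ one, but the labels do not say which libraries share a mouse.

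Fibrillar collagens are the rope-like proteins that give connective tissue its strength. Each is built as a triple helix of α chains, with type I made mostly of a pair of α1 chains and a single α2 chain, type III of identical α1 chains, and type V of α1, α2 and at times α3 chains that set the diameter of type I fibrils. Type XXVII, encoded by *Col27a1*, is a minor fibrillar collagen known from cartilage. In the synovium these fibrils fill the sublining, a loose layer of *Thy1*+ fibroblasts, whereas the lining holds fibroblast-like synoviocytes (FLS) that make lubricin from *Prg4*.

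On GRCm38 with GENCODE vM21, *Col1a1* (ENSMUSG00000001506) lies at chr11:94936224-94953042 on the plus strand. *Col1a2* (ENSMUSG00000029661) lies at chr6:4504814-4541544, plus. *Col3a1* (ENSMUSG00000026043) lies at chr1:45311538-45349706, plus, and *Col5a2* (ENSMUSG00000026042) at chr1:45374321-45503282, minus, so that these genes of different collagens are neighbours on opposite strands with 24614 bases between them. *Col5a1* (ENSMUSG00000026837) lies at chr2:27886425-28039514, plus. *Col5a3* (ENSMUSG00000004098) lies at chr9:20770050-20815067, minus. *Col27a1* (ENSMUSG00000045672) lies at chr4:63214004-63334991, plus. All 7 are annotated as protein coding, and the deposited gene lists pair the same identifiers with the same symbols. Small annotated genes lie on the same strand inside *Col1a2*, *Col3a1*, *Col5a2* and *Col27a1*, the last of which holds Mir455.

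The promoters of *Col3a1*, *Col5a3* and *Col27a1* are shown because these genes set the extremes of the patterns described here: the chain with the most UMIs in *Thy1*+ fibroblasts, the type V chain that fell behind the others in skeletal classes, and the chain that peaked in cartilage-lineage cells. Each is the 250 bases before the RefSeq start of the gene on GRCm38.p6, written 5′ to 3′ along the gene's strand, and capitals mark motif matches on either strand. The *Col27a1* window lies inside the gene as GENCODE places it, outside its annotated exons. The TATA box was searched as TATAAA. The other motifs were the box named CCAAT after its letters and the GC box, searched as GGGCGG.
Col3a1, chr1:45311288-45311537, plus strand: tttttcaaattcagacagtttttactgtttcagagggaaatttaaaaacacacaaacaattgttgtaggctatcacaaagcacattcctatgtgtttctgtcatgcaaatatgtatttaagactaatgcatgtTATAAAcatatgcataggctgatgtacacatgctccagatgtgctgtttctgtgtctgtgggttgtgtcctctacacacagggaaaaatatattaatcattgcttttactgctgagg
Col5a3, chr9:20815068-20815317, minus strand: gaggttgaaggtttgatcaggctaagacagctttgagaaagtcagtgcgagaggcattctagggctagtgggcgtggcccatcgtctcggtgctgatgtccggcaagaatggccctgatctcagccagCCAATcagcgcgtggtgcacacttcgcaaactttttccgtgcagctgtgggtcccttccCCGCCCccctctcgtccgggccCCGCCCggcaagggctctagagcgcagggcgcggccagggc
Col27a1, chr4:63215162-63215411, plus strand: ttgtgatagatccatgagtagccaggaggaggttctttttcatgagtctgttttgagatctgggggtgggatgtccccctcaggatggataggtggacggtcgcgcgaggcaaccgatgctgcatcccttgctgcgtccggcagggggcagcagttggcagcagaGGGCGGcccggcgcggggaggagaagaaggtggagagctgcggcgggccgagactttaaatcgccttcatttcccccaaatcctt

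These sequences differ in base composition. The G+C content was 35.2% for *Col3a1*, 62.8% for *Col5a3* and 59.6% for *Col27a1*, against a median of 52.4% over the 32851 mouse promoters of the same length in the table. *Col3a1* held 1 TATAAA match, 117 to 112 bases before the start, and none of the other motifs. *Col5a3* held 1 CCAAT box and 2 GC boxes, and *Col27a1* held 1 GC box. *Col5a1* (76.4% G+C) held 2 GC boxes, and the window of *Col1a2* (62.0% G+C) held 1 CCAAT box and 2 GC boxes, but 127 of its 250 bases lie in annotated exons. Of all promoters in the table, 12.4% held the TATA box, 33.8% the CCAAT box and 32.7% the GC box. A match is given as a description of the letters alone, and whether it acts in these cells was not tested. The table matched 5 of the 7 genes, the others being *Col1a1* and *Col5a2*.

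The matrices held 5161 barcodes, of which 4788 were kept: each had no fewer than 500 genes and 1000 UMIs, and mitochondrial genes gave no more than 10% of its UMIs. Median depth per kept cell ran from 8050.5 to 18567 UMIs between libraries and was lower in the 3 steady-state libraries. At most 2 barcodes were shared by any pair of libraries. Cells were clustered with every collagen gene held out, and clusters were named from marker lists. These gave FLS (536 cells), *Thy1*+ fibroblasts (1992 cells in the clusters F1, F2, F4 and an unnamed one), injury-induced fibroblasts (475 cells, 459 of them from injured knees), cycling cells (240), osteoblast-lineage (345), tenocyte-lineage (232), chondrocyte-lineage (149), mural (102), immune (105), endothelial (45) and adipocyte cells (41). Adipocyte cells reached 10 cells in 1 library and endothelial cells in 2, so the orders given here are over the 9 other non-immune classes (cluster 2, described next, included), and the levels of these small classes are given after them. A cluster of 526 cells, here called cluster 2, scored highest for *Prg4*+ cells without *Clic5* but did not reach the score set for a name. Levels are CPM (counts of a gene in every 1000000 UMIs) after adding up all cells that a library had in a class, where there were 10 or more. Since each 5′ UMI stands for 1 captured molecule whatever its length, levels are set beside each other between genes without scaling for length. Whether capture was equal between genes was not tested, so such comparisons are of UMIs. Immune cells, which should not make these collagens, gave the background: pooled over all 105 cells, 233 CPM for *Col1a1*, 149 for *Col1a2*, 154 for *Col3a1*, 18.3 for *Col5a1*, 24.7 for *Col5a2*, 6.44 for *Col5a3* and 3.22 for *Col27a1*. The 3 libraries with at least 10 immune cells gave lower means, of 93.9, 59.5, 74.5, 8.59, 9.94, 1.69 and 1.69 CPM in the same order. No doublets were removed, and among 80 Tom+ injured immune cells the 7 genes took up to 2.48% of the UMIs of a cell, against a median of 0.0193%.

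*Col1a1* and *Col1a2*, the chains of type I collagen, had their highest means in osteoblast-lineage cells and, among the 9 classes ordered, their lowest in FLS and mural cells. *Col1a1* stood at 17230.4 ± 10050.4 CPM (SD, n = 9 libraries) in osteoblast-lineage cells, 15204 ± 4528 (n = 6) in injury-induced fibroblasts, 10332 ± 15054 (n = 7) in chondrocyte-lineage cells, 8920 ± 4712 (n = 9) in tenocyte-lineage cells, 7211 ± 2813 (n = 5) in cycling cells, 5545 ± 3155 (n = 9) in *Thy1*+ fibroblasts, 4342 ± 2129 (n = 9) in cluster 2, 1416 ± 492 (n = 8) in FLS and 1264.0 ± 995 (n = 4) in mural cells. The step from cluster 2 down to FLS was the only one in this order larger than the larger SD of the neighbours (1.37 times that SD). *Col1a2* kept the same order but for FLS and mural cells, which changed places: it ran from 12334 ± 5834 CPM in osteoblast-lineage cells to 510.4 ± 347 in FLS. These means and SDs hold steady-state and injured libraries together, except in injury-induced fibroblasts and cycling cells, where only injured libraries had enough cells. In injured libraries alone *Thy1*+ fibroblasts held *Col1a1* at 7546 ± 1225 CPM (n = 6), above the mean of cycling cells.

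*Col3a1*, the single chain of type III collagen of loose connective tissue, had another order. Over all libraries it had its highest mean in injury-induced fibroblasts (14398 ± 1182 CPM, n = 6, all injured), followed by tenocyte-lineage cells (11490 ± 4831, n = 9) and *Thy1*+ fibroblasts (10033 ± 4696, n = 9). Its lowest mean of the 9 classes was in chondrocyte-lineage cells (1648 ± 2294, n = 7). Osteoblast-lineage cells, the leading class for type I, stood at 8359 ± 3718 CPM (n = 9), below the 3 classes with the highest means. In injured libraries alone tenocyte-lineage cells held *Col3a1* at 14641 ± 1177 CPM (n = 6), so the lead of injury-induced fibroblasts did not hold there. *Col5a1* and *Col5a2*, the chains common to type V molecules, were also highest in injury-induced fibroblasts, at 1165 ± 238 and 1864 ± 292 CPM (n = 6). Over all libraries each stood further above the next class, osteoblast-lineage cells, than the larger SD of that class and its own. In injured libraries alone this held for *Col5a1* but not for *Col5a2*. There osteoblast-lineage cells held *Col5a2* at 1574 ± 392 CPM (n = 6), within the larger SD of injury-induced fibroblasts.

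*Col5a3*, the third type V chain, and *Col27a1* were the low members and had their extremes in different classes. Over all libraries *Col5a3* was highest in cycling cells (382 ± 108 CPM, n = 5) and injury-induced fibroblasts (360.2 ± 129, n = 6), both from injured libraries only. It stood at 218 ± 77.5 (n = 8) in FLS, and had means of 134 ± 56.8 (n = 9) in tenocyte-lineage, 122 ± 63.04 (n = 9) in osteoblast-lineage and 37.6 ± 73.6 (n = 7) in chondrocyte-lineage cells. In injured libraries alone *Thy1*+ fibroblasts held *Col5a3* at 363 ± 115 CPM (n = 6), within the spread of cycling cells and injury-induced fibroblasts. *Col27a1* was highest in chondrocyte-lineage cells at 646 ± 268 CPM (n = 7), with the lowest library at 386 and the highest at 1087. That lowest library stood above every library of every other class, the next class being osteoblast-lineage cells at 85.5 ± 37.8 (n = 9, highest 143). Of the 9 classes FLS had the lowest mean *Col27a1* level, 8.74 ± 1.99 CPM (n = 8), against 3.22 in pooled immune cells. In the small classes *Col1a1* stood at 340.3 and 504 CPM, *Col1a2* at 701 and 416 CPM and *Col3a1* at 1125 and 1008 CPM in the endothelial libraries (12 and 10 cells). The adipocyte library (32 cells) held *Col1a1* at 201, *Col1a2* at 239, *Col3a1* at 725 and *Col5a3* at 32.6 CPM, each below the means of the 9 classes. The plot of levels by cell class shows these orders library by library.

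**Figure D1:**
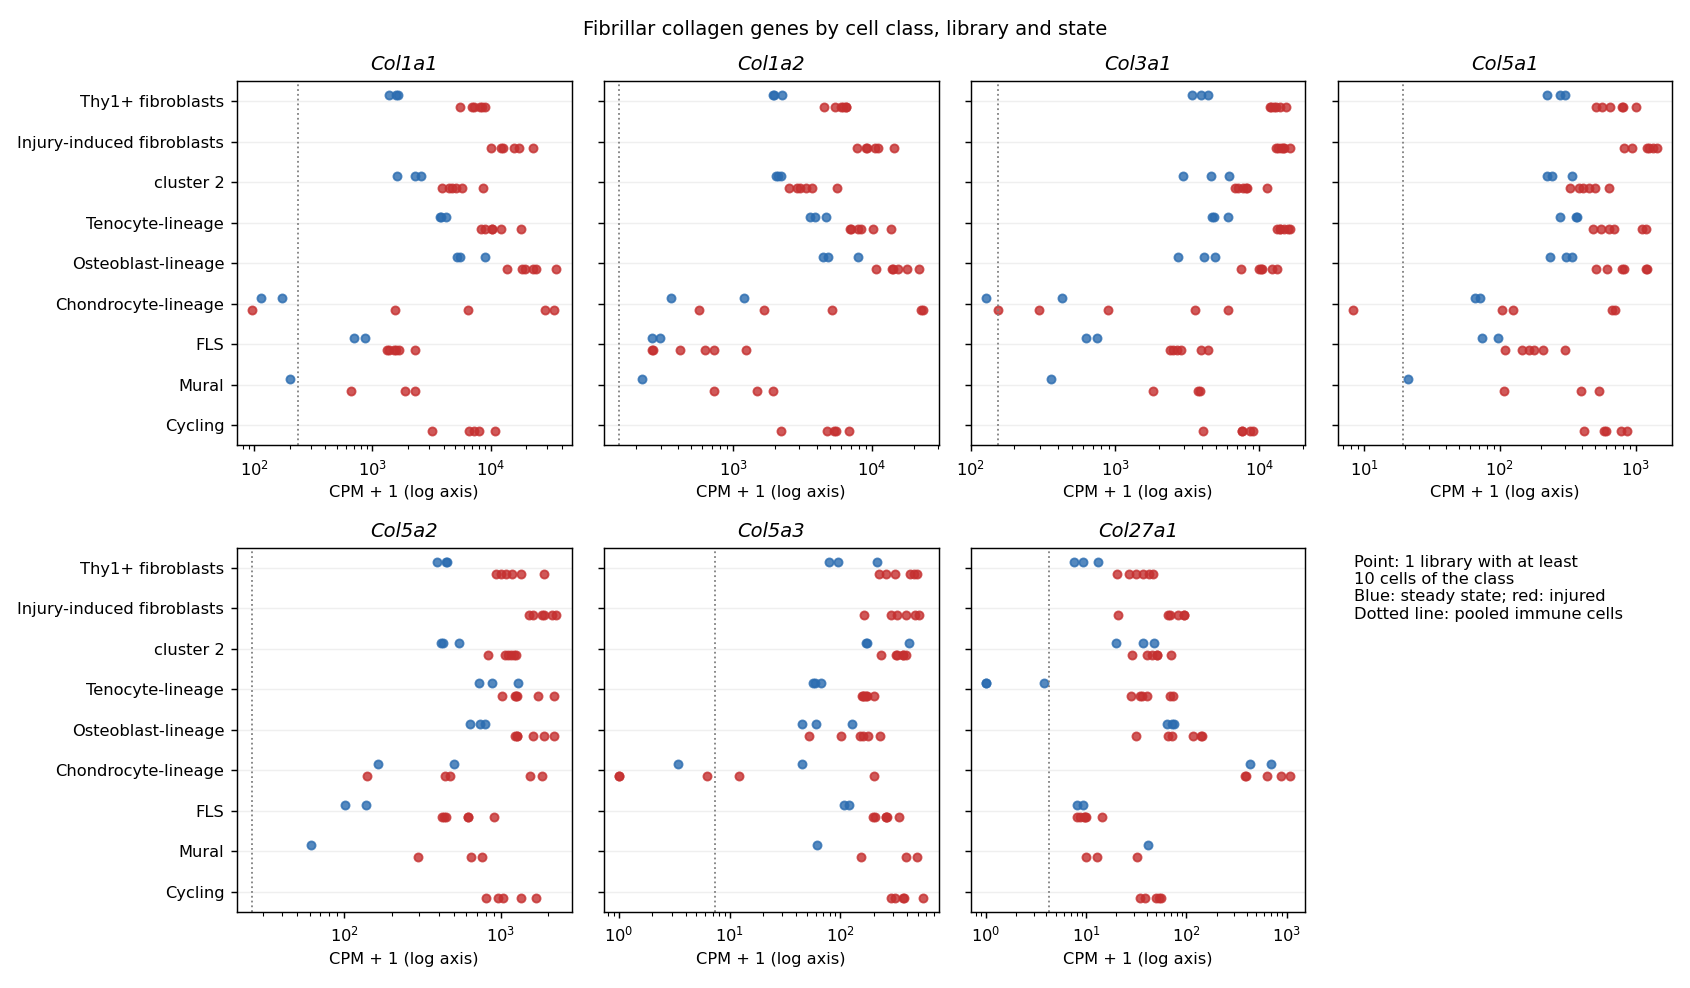
Level of each gene in 9 cell classes (horizontal log axis, CPM + 1), with 1 point per library that had at least 10 cells of the class, steady state in blue and injured in red, and a dotted line at the level of pooled immune cells. *Col27a1* peaks in chondrocyte-lineage cells at 386 to 1087 CPM, where *Col5a3* has its lowest mean among the classes shown (libraries from 0 to 201 CPM), and among these classes FLS have the lowest mean of *Col1a2* (510.4 CPM).

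Each class was set against the *Thy1*+ fibroblasts of the same libraries by edgeR's quasi-likelihood test with the library as a block, over 9499 genes. In FLS 6 of the 7 genes were lower, where 41.0% of all genes tested differed in either direction and 22.2% were lower. *Col1a2* was lowest relative to *Thy1*+ fibroblasts, with a log2 fold change of -3.39 ± 0.42 (SE, adjusted p = 2.09e-09), beside -2.31 ± 0.33 for *Col3a1*, -2.06 ± 0.25 for *Col5a1*, -2.01 ± 0.50 for *Col1a1*, -1.75 ± 0.35 for *Col27a1* and -1.34 ± 0.22 for *Col5a2*. *Col5a3* was the member that did not pass, at -0.43 ± 0.25 (adjusted p = 0.164). FLS were thus poor in the chains of types I and III while their *Col5a3* level was not distinguishable from that of the sublining fibroblasts. In mural cells, where 25.0% of genes differed and 14.3% were lower, *Col1a1*, *Col1a2*, *Col3a1*, *Col5a1* and *Col5a2* were lower, by log2 fold changes from -2.83 to -1.65, and *Col5a3* (-0.15 ± 0.35) and *Col27a1* (-0.63 ± 0.60) did not pass.

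Skeletal classes split the members. In osteoblast-lineage cells (23.2% of genes called, 10.8% higher and 12.4% lower) *Col1a1* was higher by a log2 fold change of 1.69 ± 0.47 (adjusted p = 0.00495), *Col1a2* by 1.37 ± 0.37 and *Col27a1* by 1.85 ± 0.28, and *Col5a3* was lower (-1.16 ± 0.26, adjusted p = 0.000585). In chondrocyte-lineage cells (35.1% called, 15.7% higher and 19.4% lower) *Col27a1* was higher by 4.83 ± 0.27 (adjusted p = 7.17e-21), and *Col3a1* (-3.08 ± 0.37), *Col5a1* (-1.45 ± 0.28), *Col5a2* (-0.60 ± 0.24) and *Col5a3* (-3.10 ± 0.40) were lower. The *Col5a2* call was lost without Tom-GFP+ injured 1, Tom+ injured 3, Tom+ injured 4 or Tom+ steady state 2. Tenocyte-lineage cells (11.4% called, 7.14% lower) differed in *Col5a3* alone (-0.98 ± 0.26, adjusted p = 0.00633). *Col5a3* was therefore lower than in *Thy1*+ fibroblasts in all 3 skeletal classes. Injury-induced fibroblasts (21.6% called, 10.5% higher) were higher in *Col27a1* (1.24 ± 0.27), *Col5a1* (0.78 ± 0.25) and *Col5a2* (0.70 ± 0.23), but within the injured libraries alone only 1 member passed, and without Tom-GFP+ injured 1 or Tom+ injured 4 only *Col27a1* did. Cycling cells (33.0% called, 16.0% lower) were lower in *Col3a1* alone (-0.94 ± 0.38, adjusted p = 0.0493), which did not pass within the injured libraries, nor without Tom-GFP+ injured 2, Tom+ injured 3, Tom+ injured 4 or Tom+ steady state 2. In cluster 2 (17.7% called) 0 members passed, with 2590 of all genes at an unadjusted p under 0.05, 5 members passed when low counts were not filtered, and 1 passed without the Tom-GFP+ steady state (*Col5a1*) or Tom+ injured 1 (*Col27a1*).

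Chondrocyte-lineage cells were the least uniform class for type I collagen. *Col1a1* stood at 34804, 29193, 94.8 and 6411 CPM in the Tom+ injured libraries 1 to 4, 1542 in Tom-GFP+ injured 1, 169 in Tom+ steady state 2 and 114 in the Tom-GFP+ steady state, from 11 to 38 cells each. *Col27a1* in the same libraries stood at 395, 386, 1087, 883, 642, 699 and 429 CPM, so the pair of libraries with most *Col1a1* had least *Col27a1* and the widest spread lay among injured libraries of 1 group. Among single cells, the 7 genes made up over 1% of the UMIs in 21 of 93 injured and 1 of 56 steady-state cells of this class, a limit set after the values were seen. Of those 21 cells, 20 had a UMI of *Col2a1*, the main collagen of cartilage, and 19 a UMI of *Ibsp*, a bone sialoprotein of osteoblasts, compared with 77 and 43 of all 93. With steady-state libraries only, *Col1a1* in this class was lower than in *Thy1*+ fibroblasts (log2 fold change -3.21), whereas over all libraries the value was 0.24 ± 0.53 and did not pass.

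The other 4 fibrillar chains (*Col2a1*, *Col11a1*, *Col11a2* and *Col24a1*) place the members in context. In chondrocyte-lineage cells *Col2a1* averaged 14692 CPM, *Col11a1* 2003 and *Col11a2* 1476 over 7 libraries, and all 4 chains were higher than in *Thy1*+ fibroblasts. All 4 were higher in osteoblast-lineage cells too, with *Col11a1* at 321 CPM. There *Col2a1* rested on 74 UMIs (libraries from 0 to 313 CPM) and *Col24a1* on 51 UMIs (0 to 42.2 CPM). In *Thy1*+ fibroblasts the averages of the 4 chains were at or below 6.02 CPM, and in FLS at or below 6.05.

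Injury was examined in *Thy1*+ fibroblasts first, since they held the most cells and libraries. All 7 genes were higher in injured than in steady-state Tom+ *Thy1*+ fibroblasts, and for each of them the 4 injured libraries lay above both steady-state ones. Of the 11911 genes tested, 7.93% were called in either direction and 2.93% were called higher, with a median log2 fold change over all genes of -0.02, against 1.72 over the 7. The plot of levels in *Thy1*+ fibroblasts gives each library.

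**Figure D2:**
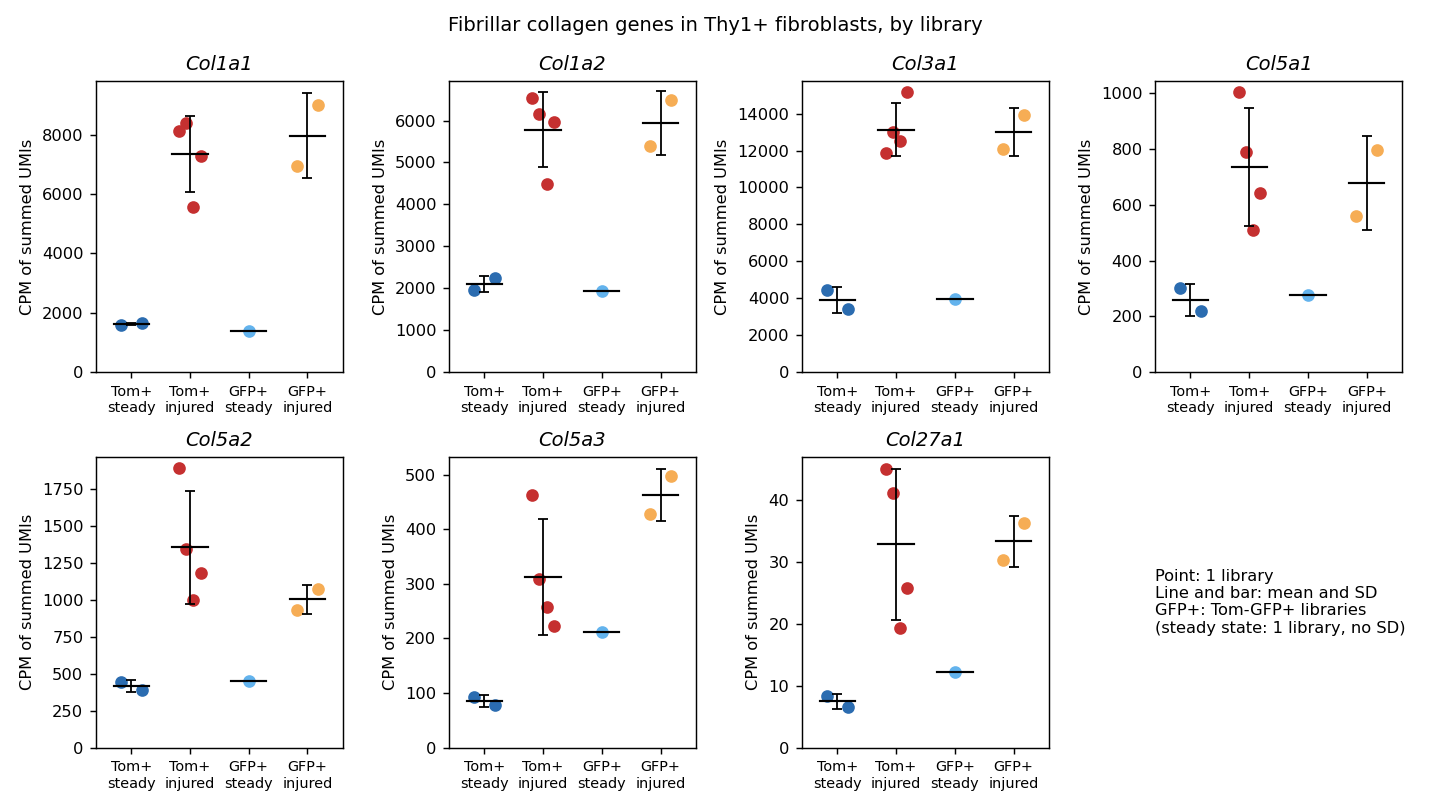
Level of each gene in *Thy1*+ fibroblasts (vertical axis, CPM from 0) in every library of the 4 groups of lineage and state (GFP+ stands for Tom-GFP+), with 1 point per library, a line at the group mean and a bar for the SD where a group has more than 1 library. In both lineages the injured libraries lie above the steady-state ones for all 7 genes, for example 5549 to 8387 against 1598 and 1651 CPM for *Col1a1* in Tom+ cells.

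The type I chains moved by unequal amounts. *Col1a1* stood at 1598 and 1651 CPM in the Tom+ steady-state libraries and at 8123, 8387, 5549 and 7289 CPM in the injured ones. Its log2 fold change was 2.15 ± 0.25 (SE, adjusted p = 0.00149). *Col1a2* stood at 1967 and 2231 CPM and then at 6527, 6156, 4480 and 5959 CPM, and its log2 fold change was 1.43 ± 0.23 (adjusted p = 0.00609). *Col1a2* thus had more UMIs than *Col1a1* before injury and fewer after it, in every library.

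*Col3a1* had the most UMIs of the 7 in this class in all 9 libraries. It stood at 4419 and 3411 CPM in the steady state and at 11850.4, 12984, 12540 and 15171 CPM after injury, a log2 fold change of 1.72 ± 0.24 (adjusted p = 0.00318). The 3 type V chains followed. *Col5a1* stood at 300.3 and 219 CPM and at 1004, 791, 509 and 644 (1.47 ± 0.30, adjusted p = 0.0177). *Col5a2* stood at 448 and 390 CPM and at 1893, 1345, 1002 and 1182 (1.66 ± 0.26, adjusted p = 0.00619). For both, Tom+ injured 1 was the highest library.

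*Col5a3* stood at 93.8 and 78.3 CPM in the steady state and at 464, 309, 257 and 222 CPM after injury, a log2 fold change of 1.83 ± 0.29 (adjusted p = 0.00619). *Col27a1*, the rarest member here, stood at 8.37 and 6.62 CPM and at 45.1, 41.1, 19.4 and 25.8 CPM, or a log2 fold change of 2.13 ± 0.37 (adjusted p = 0.00951). After thinning each cell to 4000 UMIs, 2.58% to 3.08% of steady-state and 3.88% to 15.3% of injured cells held a *Col27a1* UMI (3.97% to 5.58% and 16.8% to 43.2% without thinning), beside 1.23% of thinned immune cells. For *Col5a3* the thinned shares were 24.6% to 25.5% and 45.7% to 63.5% (39.5% to 42.7% and 71.9% to 89.2% without thinning), beside 3.70% of thinned immune cells.

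These calls rested on both Tom+ steady-state libraries. Without Tom+ steady state 1 the 7 log2 fold changes stayed between 1.36 and 2.30 but only *Col1a1* and *Col3a1* passed, and without Tom+ steady state 2 they lay between 1.247 and 2.15 and only *Col1a1* passed. The 3 steady-state matrices and Tom+ injured 1 have an older gene-list format and the other 5 a newer one. With this format as a block, which sets Tom+ injured 1 against the Tom+ steady state, all 7 passed at log2 fold changes from 1.53 to 2.54. When every stromal cluster was summed instead, 6 passed and *Col27a1* did not (0.21 ± 0.43, adjusted p = 0.777). In simulated data of this comparison over 11911 genes, the test recovered 72% of 4-fold and 8% of 2-fold changes.

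The markers of other cell states in the *Thy1*+ cells also differed between groups. The 5 markers of injury-induced fibroblasts summed to 40.1 and 45.2 CPM in the Tom+ steady-state libraries and to between 1542 and 4701 CPM in the injured ones. The 6 mural markers summed to 11.7 and 12.3 against 34.9 to 230 CPM, and the 6 cycling markers to 0.558 and 1.17 against 3.33 to 22.4 CPM, whereas the 6 markers of F4 stood at 2655 and 3301 against 744 to 1639 CPM. The 3 markers each of F2 (2406 and 2563 against 449 to 2144), F5 (27.6 and 30.7 against 4.39 to 16.4) and F6 (152 and 159 against 64.5 to 110.04) and the 7 osteoblast markers (27.6 and 29.6 against 11.3 to 21.2) were lower after injury in every library, and the 3 of F3 were higher (274 and 382 against 397 to 824). The 5 markers of *Thy1*+ fibroblasts themselves summed to 14395 and 13236 CPM in the steady state. They summed to 7117, 8240, 13379 and 13771 CPM in Tom+ injured 1 to 4. Tenocyte markers (49.7 and 130 against 127 to 748 CPM) and FLS markers (452 and 484 against 313 to 1755 CPM) overlapped between the groups. Immune markers overlapped too (3.11 to 26.2 against 8.09 to 79.8 CPM), as did chondrocyte markers. The part of these shifts in the collagen result was not tested.

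Within single *Thy1*+ clusters, compared after the data were seen, the same direction was found. In F1 and in F2 all 7 genes passed. In F4, whose cells carry the universal fibroblast markers *Dpp4* and *Pi16*, 6 passed and *Col27a1* had too few UMIs to be tested. F4 had the least collagen in the steady state, with *Col3a1* at 1876 and 2035 CPM against 9574 to 14510 after injury, a log2 fold change of 2.68 ± 0.24 (adjusted p = 1.99e-06). Clusters parted over *Col5a3*. In F1 it rose from 81.8 and 112 CPM to between 453 and 596 (2.45 ± 0.26, adjusted p = 0.000244), whereas in the unnamed *Thy1*+ cluster it stood at 118 and 166 against 161 to 218 CPM, which overlap (0.35 ± 0.26, adjusted p = 0.577). The difference between the clusters was not tested. In that unnamed cluster 5 members passed, the other non-passing one being *Col27a1* (1.67 ± 0.54, adjusted p = 0.0852).

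The same question was put to *Thy1*+ fibroblasts outside the *Gdf5* lineage. Here the steady state is a single library, whose spread the test takes from the other groups, and 0.613% of genes were called (0.151% higher). *Col1a1* stood at 1377 CPM in the Tom-GFP+ steady state and at 6951 and 8980.4 CPM in the injured libraries, and passed with a log2 fold change of 2.4996 ± 0.36 (adjusted p = 0.0213). *Col3a1* stood at 3937 against 12066 and 13918 CPM (1.69 ± 0.34, adjusted p = 0.0547) and *Col1a2* at 1937 against 5398 and 6478 CPM (1.58 ± 0.32, adjusted p = 0.0567). All 6 members other than *Col1a1* had injured libraries above the steady-state one and did not pass, the 4 minor chains having log2 fold changes from 1.09 to 1.40. Without Tom-GFP+ injured 1 or without Tom-GFP+ injured 2, 0 members passed. Marker sums shifted in this lineage too, from the steady-state library to the injured ones: injury-induced fibroblasts 36.7 against 1121 and 2147 CPM, F4 3603 against 1880 and 2101, F6 1088 against 155 and 312, and mural 7.17 against 18.4 and 256. The 5 markers of *Thy1*+ fibroblasts summed to 14137 against 11526 and 11572 CPM. The part of these shifts in the collagen values was not tested. All but *Col27a1* passed without Tom+ injured 1, and *Col1a1* and *Col3a1* passed without Tom+ injured 4. With the gene-list format as a block 6 members passed. In Tom-GFP+ cells the format goes with the state, so the block takes the format difference from the Tom+ injured libraries alone. There only Tom+ injured 1 has the older format, so this count depends on that library and not on Tom-GFP+ cells alone.

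The lineages were compared directly as well. No member's injury difference was called different between Tom+ and Tom-GFP+ cells; 0 of 11911 genes were by edgeR's quasi-likelihood test, with 214 at an unadjusted p under 0.05, and DESeq2 called 2, neither of them a member. Within the injured state 0 members differed between lineages (0.0420% of genes called, 655 genes at an unadjusted p under 0.05) and within the steady state 0 (0.0252% called, 477 at an unadjusted p under 0.05). *Col5a3* had the widest gap of the 7, at 93.8 and 78.3 CPM in the Tom+ steady state against 212 in Tom-GFP+ cells, with a log2 fold change of -1.27 ± 0.37 for Tom+ over Tom-GFP+ (adjusted p = 0.684). After injury it stood at 222 to 464 against 429 and 497 CPM, which overlap (-0.53 ± 0.26, adjusted p = 0.939). The same side-by-side reading of *Col5a3* in classes where the lineages were not tested gave 414 CPM in steady-state cluster 2 of Tom-GFP+ cells against 174 and 169.7 CPM in Tom+ cells. Injury-induced fibroblasts held it at 477 and 513 CPM in Tom-GFP+ libraries against 165 to 394 CPM in Tom+ ones, which do not overlap. In osteoblast-lineage cells of the steady state the Tom-GFP+ library (59.9 CPM) lay between the Tom+ ones (44.1 and 127). Missing the threshold does not show that the lineages were alike at these numbers of libraries.

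FLS changed in other proportions. Of 8875 genes tested in Tom+ FLS, 3.84% were called and 1.54% were called higher, and 4 of the 7 members were higher after injury. *Col3a1* stood at 750.4 and 626 CPM in the steady state, from 19 and 27 cells, and at 4367, 2854, 2692 and 2384 CPM after injury, a log2 fold change of 2.21 ± 0.27 (adjusted p = 0.00138). *Col5a2* stood at 100.1 and 137 CPM and at 902, 610.4, 417 and 443 CPM (2.36 ± 0.38, adjusted p = 0.0141). For both genes every injured library lay well above both steady-state ones.

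Tom-GFP+ FLS had too few steady-state cells for the same comparison, and their injured libraries, of 23 and 31 cells, held *Col3a1* at 3905 and 2515 CPM and *Col5a2* at 613 and 433 CPM, within the range of injured Tom+ FLS.

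The remaining values of Tom+ FLS were smaller or unresolved. *Col1a1* stood at 858 and 693 CPM and at 1692, 1336, 1369 and 1512 CPM (0.98 ± 0.18, adjusted p = 0.00847), and *Col5a3* at 107 and 120.1 CPM and at 264, 259, 256 and 196 CPM (1.15 ± 0.23, adjusted p = 0.0131). *Col1a2* stood at 297 and 257 CPM and at 731, 257, 263 and 414 CPM, so the groups overlapped and it did not pass (0.63 ± 0.54, adjusted p = 0.597). *Col5a1* stood at 96.5 and 72.6 CPM against 108 to 298 (1.16 ± 0.45, adjusted p = 0.209), and *Col27a1* at 7.15 and 8.38 against 7.16 to 13.4 CPM (0.30 ± 0.62). For comparison, *Col1a2* stood at 30.4, 63.0144 and 85.1 CPM in the 3 immune libraries, below every FLS library. Without Tom+ steady state 1, *Col1a1* and *Col3a1* passed, and without Tom+ steady state 2 *Col3a1* alone. With the gene-list format as a block *Col5a1* passed too (1.88 ± 0.30, adjusted p = 0.00252).

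The injury differences of FLS and *Thy1*+ fibroblasts were tested against each other within the Tom+ libraries, a comparison added after the data were seen. *Col1a1* was called, with a difference of -1.10 ± 0.17 on the log2 scale (FLS minus *Thy1*+, adjusted p = 0.00242), where 0.659% of 11085 genes were called. In other words *Col1a1* rose less in FLS than in *Thy1*+ fibroblasts. *Col5a2* pointed the other way at 0.70 ± 0.22 (adjusted p = 0.194), as did *Col3a1* at 0.49 ± 0.34 (adjusted p = 0.719), and neither passed. *Col1a2* (-0.87 ± 0.40), *Col5a1* (-0.34 ± 0.23), *Col5a3* (-0.61 ± 0.26) and *Col27a1* (-1.74 ± 0.86) did not pass. Without Tom+ steady state 1 the *Col1a1* call was lost. Without Tom+ injured 1 *Col1a2* was called as well. The plot of injury differences places the classes side by side.

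**Figure D3:**
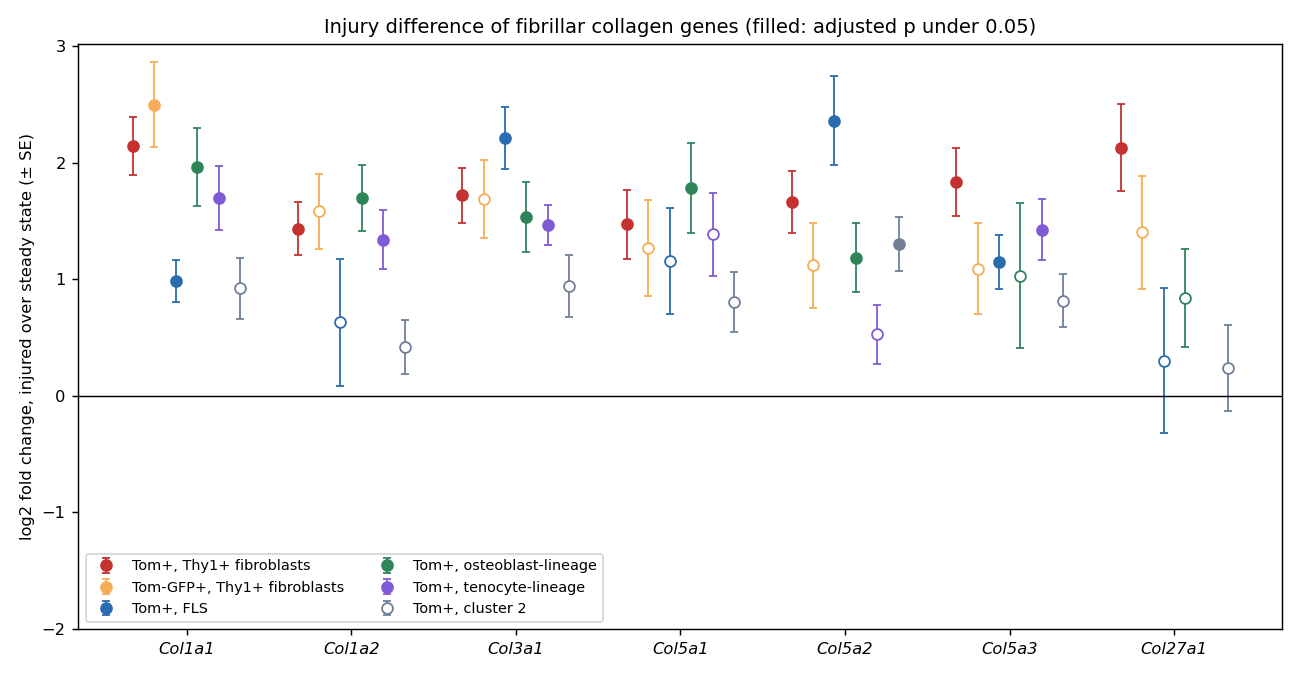
Log2 fold change of each gene, injured over steady state, with its SE as the bar, in Tom+ and Tom-GFP+ *Thy1*+ fibroblasts and in 4 other Tom+ classes, with filled points past an adjusted p of 0.05. All values shown lie above 0, FLS are the lowest of the called classes for *Col1a1* (0.98) with the highest values for *Col3a1* and *Col5a2* (2.21 and 2.36), whose differences from *Thy1*+ fibroblasts did not pass, and *Col27a1* in tenocyte-lineage cells is left out because its steady state rests on 1 UMI.

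Osteoblast-lineage and tenocyte-lineage cells were compared after their classes were known. In Tom+ osteoblast-lineage cells *Col1a1* stood at 5216 and 5517 CPM in the steady state and at 24337, 22952, 19690.3 and 13829 CPM after injury (1.96 ± 0.34, adjusted p = 0.0101). *Col1a2* stood at 4445 and 4843 CPM against 10768 to 17786 (1.70 ± 0.28, adjusted p = 0.00758). Types III and V followed in these cells. *Col3a1* stood at 4899.5 and 2739 CPM against 7403 to 13130.4 (1.53 ± 0.30, adjusted p = 0.0171), *Col5a1* at 306 and 231 against 509 to 1209 CPM (1.78 ± 0.39, adjusted p = 0.0311) and *Col5a2* at 734 and 630.2 against 1234 to 1892 CPM (1.19 ± 0.29, adjusted p = 0.0451). That makes 5 of 7 members called, all with injured libraries above both steady-state ones, where 3.35% of 4952 genes were called (1.17% higher). *Col27a1* stood at 70.8 and 62.5 CPM against 138, 143, 30.6 and 115 CPM, and *Col5a3* at 127 and 44.1 against 161, 226, 178 and 51.1 CPM, both with overlapping groups and neither passing. When Tom+ steady state 1 or Tom+ steady state 2 was left out, 0 members passed in this class.

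In tenocyte-lineage cells *Col1a1* stood at 3704 and 3782 CPM in the Tom+ steady state and at 12366, 18163, 10325 and 8979 CPM after injury (1.70 ± 0.28, adjusted p = 0.00624). *Col3a1* stood at 6009.96 and 4719 CPM against 13931 to 16200 (1.46 ± 0.17, adjusted p = 0.000483) and *Col5a3* at 65.9 and 55.8 against 156 to 175 CPM (1.42 ± 0.26, adjusted p = 0.00931). With *Col1a2* (1.34 ± 0.26) and *Col27a1* these were 5 of 7 members called, where 3.37% of 5817 genes were (1.34% higher). *Col27a1* had 1 UMI in 510276 in the steady state and 98 in 1693780 after injury, a ratio of 29.5 with an exact 95% Poisson interval from 5.18 to 1178, which covers counting error only. *Col5a1* (1.39 ± 0.36, adjusted p = 0.0571) and *Col5a2* (0.53 ± 0.25) did not pass. *Col5a2* stood at 1292 and 870.2 CPM against 1235 to 2171, with overlap. Without Tom+ steady state 2, 0 members passed, and without Tom+ steady state 1, *Col3a1* and *Col27a1* did. The single Tom-GFP+ steady-state library of this class had 4198 CPM of *Col1a1* and 0 UMIs of *Col27a1*, and the injured ones 10389 and 8372 CPM of *Col1a1* and 26.7 and 33.5 CPM of *Col27a1*.

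Cluster 2, the *Prg4*-bearing cluster without a name, was compared in the same way. *Col5a2* stood at 415 and 426 CPM in the Tom+ steady state and at 1203, 1159, 828 and 1065 CPM after injury. It was the only one of the 7 to pass (1.30 ± 0.23, adjusted p = 0.0129; 1.44% of 8529 genes called, 0.457% higher), and the other 6 had log2 fold changes from 0.24 to 0.95. *Col3a1* stood at 4640 and 2937 CPM against 6745 to 8206 (0.95 ± 0.27, adjusted p = 0.0928) and *Col5a3* at 174 and 169.7 against 234 to 366 CPM (0.82 ± 0.23, adjusted p = 0.0924), both without overlap between the groups. When Tom+ steady state 1 or 2 was left out, 0 members passed. Injury-induced fibroblasts had too few steady-state cells for a comparison by state. In the injured Tom+ libraries they held *Col1a1* at 12295, 15876, 10163 and 22699.8 CPM, above the *Thy1*+ fibroblasts of each of the same libraries. Their *Col3a1* was even across libraries (12980.4 to 16356 CPM over 6 libraries), whereas *Col27a1* ran from 19.7 CPM in Tom+ injured 3 to 94.0 CPM in Tom-GFP+ injured 2. Tom+ injured 3 also had the lowest *Col1a1* and *Col5a1* of this class, at 10163 and 822 CPM.

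The makeup of the collagen pool shifted beside its size. In Tom+ *Thy1*+ fibroblasts the 7 genes took 0.841% ± 0.0599 (SD, n = 2) of all UMIs in the steady state and 2.87% ± 0.290 (n = 4) after injury, and in Tom-GFP+ cells the steady-state library had 0.820% and the injured ones 2.91% ± 0.383 (n = 2). Osteoblast-lineage cells went from 1.49% ± 0.122 to 4.82% ± 0.988, tenocyte-lineage cells from 1.43% ± 0.103 to 4.00% ± 0.783, and FLS from 0.206% ± 0.0214 to 0.5996% ± 0.152. Shares of the 7 within FLS differed between states: *Col3a1* made up 33.3% ± 0.828 of their UMIs before and 51.0% ± 2.91 after injury, *Col1a1* 37.5% ± 1.77 and 25.3% ± 3.88, and *Col1a2* 13.4% ± 0.0308 and 6.69% ± 2.09. In *Thy1*+ fibroblasts the share of *Col3a1* was 46.4% ± 5.17 before and 46.0% ± 5.55 after injury, a difference within the spread. Cell by cell, the 7 genes took a median of 0.650% of the UMIs in 517 Tom+ steady-state *Thy1*+ fibroblasts and 2.69% in 790 injured ones, with the 10th percentile after injury (1.33%) close to the 90th before it (1.54%).

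The ratio of *Col1a1* to *Col1a2* UMIs gives the balance of captured RNA of the type I chains, whose protein pairs chains at a fixed ratio of α1 to α2. It stood at 0.812 and 0.740 in the Tom+ steady-state libraries of *Thy1*+ fibroblasts and at 1.22 to 1.36 in the 4 injured ones, and in Tom-GFP+ cells at 0.711 against 1.29 and 1.39. Steady-state and injured libraries did not overlap in any of F1, F2, F4 and the unnamed *Thy1*+ cluster, nor in tenocyte-lineage cells, osteoblast-lineage cells or cluster 2. In F4 the mean ratio in Tom+ cells was 0.579 before and 1.09 after injury. FLS stood apart at 2.89 and 2.70 before and 2.31, 5.205, 5.197 and 3.65 after injury, where the groups overlapped. The ratio counts RNA molecules captured at their 5′ ends, with no p given, since the members enter it on both sides.

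**Figure D4:**
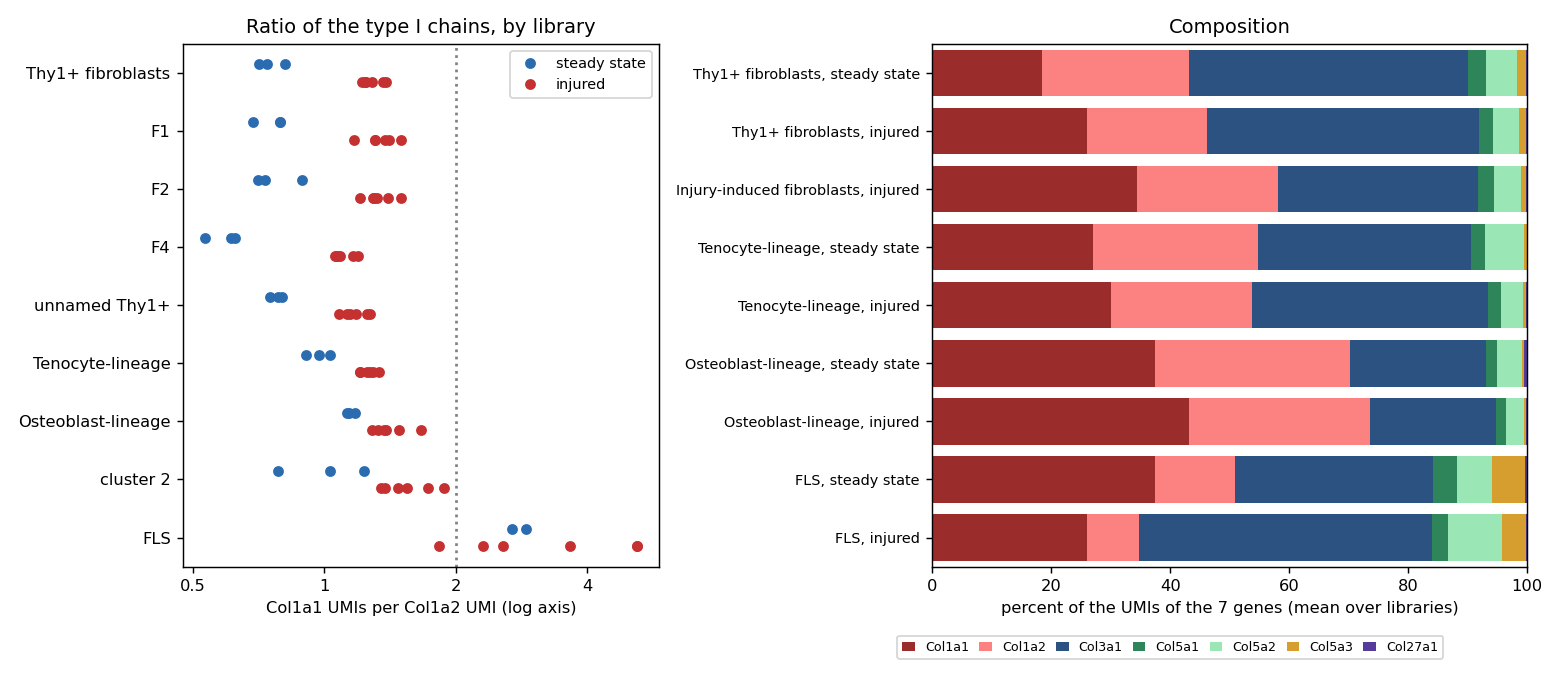
Left, *Col1a1* UMIs per *Col1a2* UMI (log axis) in each library of 9 classes and clusters, steady state in blue and injured in red, with a dotted line at 2. Right, each gene's percent of the UMIs of the 7 genes, as the mean over the libraries of both lineages, in 5 classes by state (injury-induced fibroblasts in the injured state only). The ratio lies near 0.8 before and 1.3 after injury in *Thy1*+ fibroblasts, and *Col3a1* takes more of the pool in injured than in steady-state FLS (in Tom+ cells 51.0% against 33.3%).

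Collagen chains need enzymes and chaperones to be hydroxylated, folded, trimmed, cross-linked and removed. These genes were read from lists chosen with earlier results of these data known. The study had already named *Postn*, *Bgn*, *Lum*, *Sparc* and *Lox* among the genes raised by injury in its fibroblast clusters. Of all genes tested in Tom+ *Thy1*+ fibroblasts, 7.93% were called in either direction and 2.93% were called higher. In Tom+ *Thy1*+ fibroblasts 2 of 17 genes of hydroxylation and folding rose with injury, *Plod2* (2.47 ± 0.24 on the log2 scale), a lysyl hydroxylase, and *P4ha3* (1.54 ± 0.29), a prolyl 4-hydroxylase subunit, and the list's median was 0.51 against -0.02 over all genes. Of 6 tested procollagen cleavage genes *Pcolce2*, an enhancer of C-propeptide removal, fell (-2.47 ± 0.30) and none rose. *Lox*, which starts cross-linking, rose (2.92 ± 0.60) as 1 of 4 tested. Of 9 fibril-binding genes 4 rose, *Postn* (2.39 ± 0.33), *Bgn* (1.39 ± 0.26), *Lum* (1.31 ± 0.28) and *Sparc* (1.09 ± 0.20). Of 5 breakdown and uptake genes 2 rose, *Mmp13* (4.26 ± 1.06) and *Mmp14* (1.34 ± 0.28). None of the 3 tested other fibrillar chains passed. In Tom-GFP+ cells *Postn* (2.84 ± 0.48) and *Plod2* (2.01 ± 0.33) passed. In FLS *Lox* (2.87 ± 0.61), *Plod2* (1.29 ± 0.25), *Pcolce* (0.82 ± 0.18), *Sparc* (0.83 ± 0.16) and *Mmp14* (0.75 ± 0.18) rose and *Pcolce2* (-3.33 ± 0.34) and *Thbs2* (-1.80 ± 0.40) fell.

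Between classes the same lists separated the injury-induced fibroblasts, in which 14 of 17 hydroxylation and folding genes were higher than in *Thy1*+ fibroblasts and 0 lower, where 10.5% of all genes tested were higher. Of the 7 collagen genes 3 were higher there, and 1 within the injured libraries alone. In FLS 1 of the 17 was higher and 6 were lower (22.2% of all genes were lower), and in osteoblast-lineage cells 8 were higher and 1 lower (10.8% and 12.4% of all genes). Of 9 fibril-binding genes, 6 were lower and 1 higher in FLS, and 5 were higher and 3 lower in osteoblast-lineage cells.

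Across 52 sums of a class in a library with at least 20 cells, *Col1a1*, *Col1a2*, *Col3a1*, *Col5a1* and *Col5a2* followed each other closely, with Pearson's r from 0.85 to 0.94 on log values. *Col5a3* correlated with them at 0.51 to 0.84. *Col27a1* correlated with the other 6 at -0.13 to 0.48. The sums share libraries, depth and cells of related classes, so these values describe the pattern and carry no p. Among 5422 other genes the most similar were *Thbs2* for *Col1a1* and *Col1a2* (0.92 and 0.90), *P4ha3* for *Col3a1* and *Col5a1* (0.92 and 0.94), *Fkbp7* for *Col5a2* (0.91), *Fstl1* for *Col5a3* (0.91) and *Tsc22d1* for *Col27a1* (0.88).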

How the data were processed

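The libraries were made with the 10x Genomics 5′ kit from cells of collagenase-digested knees after cell sorting, and the authors deposited raw UMI counts per gene and cell, made with Cell Ranger (version 3.0.2 in the newer matrices) on GRCm38.p6. Depth ran from 2866464 to 15033902 UMIs per library. Cells were integrated with Seurat 5.3.0 (2000 features, 30 dimensions, resolution 1), with 128 genes held out (every collagen gene, the gene lists reported and the reporters). Clusters were named from marker lists by a rule fixed only once their markers had been viewed. UMIs were summed per class and library (at least 10 cells) and tested with edgeR 4.0.16 (TMM, quasi-likelihood test, Benjamini-Hochberg, threshold 0.05), and R 4.3.3 was used. Fits within a class held all of its libraries, so the single Tom-GFP+ steady-state library took its spread from the others. FLS of the Tom-GFP+ steady state (4 cells) were left out.

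The 7 genes and all lists were chosen with earlier results of these data known. All 7 genes are named, with other genes named from the fixed lists where they passed, and the gene most similar to each member by Pearson's r. Whether reads of overlapping genes were shared is not given in the sources used here. No doublets were removed. Scrublet was an alternative. On simulated counts for the Tom+ injury comparison over 11911 genes, 8 of 100 genes changed 2-fold and 72 of 100 changed 4-fold were recovered, with 10 false calls. Nothing in the labels says that equal replicate numbers share a mouse. Same-numbered Tom+ and Tom-GFP+ injured libraries, which could share a mouse, had deviations correlated at 0.082 and 0.063. The other same-numbered pairs (-0.052 to 0.122) join a naive and an injured library, so they cannot speak to a shared mouse. These values do not decide whether the numbers pair mice. p-values measure the spread between these libraries. Intervals cover counting error only.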

Additional observations from a re-analysis of the deposited data

Results flagged for a closer look

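In Tom+ chondrocyte-lineage cells *Col5a3* stood at 201 CPM in injured library 2, from 11 cells, far above the other 3 injured libraries (0, 5.202 and 11.0 CPM). In Tom+ FLS *Col5a3* stood at 196 CPM in injured library 4, below the other 3, which lay between 256 and 264 CPM. A sample that far from its group arises by chance in about 1 of 20 groups, and 56 groups were examined. The injury difference of *Col1a1* on the log2 scale differed between FLS and *Thy1*+ fibroblasts by -1.10 in edgeR's test of the difference itself.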

How the results depend on the processing

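The 7 members called in Tom+ *Thy1*+ fibroblasts were between 1 and 7 when 1 library was left out, and stayed within 1.5 times under the other settings. In Tom-GFP+ *Thy1*+ fibroblasts 1 member was called, against 3 with DESeq2, 7 without the filter on low counts, 6 with the gene-list format as a block, 2 with marker gates in place of clusters, 4, 3 and 2 in F1, F2 and F4 alone, and 0 to 6 without 1 library. The format block here takes its estimate from the Tom+ injured libraries, of which only Tom+ injured 1 has the older format. The lineage comparison in the steady state had 0 members, and 1 without the filter. Leaving out 1 library gave 1 to 4 for injury in FLS, 0 to 5 in osteoblast-lineage cells, 0 to 6 in tenocyte-lineage cells (3 with DESeq2), 0 to 1 in cluster 2 (5 without the filter) and 0 to 2 for the difference between FLS and *Thy1*+ fibroblasts (2 without the filter).

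Against *Thy1*+ fibroblasts, cluster 2 had 0 members, 5 without the filter, 1 in steady-state libraries, 2 with at least 20 cells and 0 to 1 without 1 library. Cycling cells had 1, against 2 without the filter, 0 in injured libraries, with limma or without Scrublet doublets, 3 without integration and 0 to 1 without 1 library. Injury-induced fibroblasts had 3, against 5 without the filter or with at least 20 cells, 1 in injured libraries or with limma, 6 without integration and 1 to 3 without 1 library. Tenocyte-lineage cells had 1, against 2 with DESeq2 or in the steady state, 4 without the filter and 0 with limma. In chondrocyte-lineage cells the type I chains changed sign: *Col1a1* from 0.24 to -3.21 in steady-state libraries, -1.51 with limma, -1.73 with at least 20 cells and -1.80 without integration, and *Col1a2* from 0.26 to -1.49, -1.35 and -1.22 in the steady state, with at least 20 cells and without integration. The cause was not tested.

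The counts of all genes called ranged over the other settings from 311 (F4 only) to 1904 (all stromal cells) about 944 for Tom+ injury in *Thy1*+ fibroblasts, and 99 to 1501 without 1 library. They ranged from 59 to 860 about 73 in Tom-GFP+ cells (7 to 785 without 1 library), from 164 to 877 about 341 in FLS (42 to 550), from 158 to 557 about 166 in osteoblast-lineage cells (0 to 231), from 164 to 499 about 196 in tenocyte-lineage cells (9 to 301), from 94 to 793 about 123 in cluster 2 (40 to 349), from 1 to 199 and 1 to 151 about 5 and 3 for the lineages, and from 0 to 7 about 0 for the interaction. For the difference between FLS and *Thy1*+ fibroblasts they ranged from 70 to 225 about 73. Between classes they ranged from 883 to 4484 about 3899 in FLS, 1234 to 4327 about 3330 in chondrocyte-lineage, 1034 to 2799 about 2200 in osteoblast-lineage, 348 to 1664 about 1084 in tenocyte-lineage, 549 to 2264 about 2049 in injury-induced, 1460 to 4272 about 3135 in cycling and 83 to 2222 about 1682 in cluster 2 cells.

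With the replicate number as a block, 7 members were called in Tom+ *Thy1*+ fibroblasts, 1 in Tom-GFP+ cells, 5 in FLS, 4 in osteoblast-lineage cells, 6 in tenocyte-lineage cells, 1 in cluster 2 and 0 between lineages. Replicates 3 and 4 occur only in Tom+ injured, so this block takes them out of the contrasts. The Tom+ injury counts thus rest on Tom+ injured 1 and 2 against the steady state. Whether the numbers pair Tom+ with Tom-GFP+ samples of the same state is not known from the labels. Naive and injured samples of equal number come from different mice. Most Tom+ calls rest on 2 steady-state libraries, and FLS of these held 19 and 27 cells, so that the low chains were counted from few UMIs there. The single clusters, and the comparisons of injury in osteoblast-lineage cells, tenocyte-lineage cells and cluster 2 and between FLS and *Thy1*+ fibroblasts, were chosen after seeing the data.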
